A study of Homo sapiens with 4 samples.

Results

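Aminoacyl-tRNA synthetases join each amino acid to its transfer RNAs, and every protein a cell makes depends on them. Human cells keep nearly separate sets for the cytosol and for the mitochondria, although the genes of both sets lie in the nuclear genome and the mitochondrial enzymes are imported. Many cytosolic synthetase genes are known targets of ATF4, the transcription factor that the integrated stress response raises when amino acids run short or the endoplasmic reticulum is stressed. The 35 genes described here were taken by name from a list of synthetases, drawn up with earlier results of these data known: 19 encode cytosolic enzymes and 16 mitochondrial ones, among 20348 genes in the deposited count table.

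RNA was taken from K562 cells, an erythroid-like line from a chronic myeloid leukemia, and from THP-1 cells, a monocytic line from an acute myeloid leukemia. Each line was grown in RPMI medium with fetal bovine serum and held for 72 h either in DMSO, the solvent, which the sample titles call a control blank, or in 100 nM periplocin, a cardiac glycoside from the bark of Periploca. There were 4 poly-A libraries, 1 per condition, and no genetic change in any group. No spread between replicates can be estimated, so a fold change within a line has only an interval for counting error, and neither interval nor fold covers variation between cultures.

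Library totals lay between 16381149 and 20622694 counts, and the share of counts on genes of the mitochondrial genome was 5.62% in DMSO and 2.07% in periplocin for K562, beside 5.24% and 3.92% for THP-1. Summed over 6 erythroid markers (HBG1, HBG2, HBZ, GATA1, KLF1, TAL1), levels in CPM, a gene's counts scaled to 1 common library total, were 1764 in K562 DMSO and 7660 in K562 periplocin, against at most 3.54 in THP-1. Over 7 monocytic markers (SPI1, LYZ, MPO, CSF1R, CD33, ITGAM, FCGR1A) they were 731 and 902 CPM in THP-1 and at most 87.9 in K562, with MPO at 0 counts in K562 and at 43 and 14 in THP-1. Of 6 markers of other cells, MS4A1 was at 0 in all libraries, EPCAM reached 43.5 CPM in K562 and PECAM1, which monocytes also carry, 634 CPM in THP-1. Both lines thus carried the markers of their label. Levels are shares of a library, so fewer cells of a type and less RNA per cell cannot be told apart, and the part of the erythroid rise in the K562 values was not tested.

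The cytosolic synthetases were mostly lower in periplocin in K562 and divided in THP-1. The mitochondrial synthetases were all lower in THP-1, 15 of the 16 beyond counting error. In K562 11 of the 16 were lower, with a smaller median log2 change of -0.13. Together the 19 cytosolic genes held 9007 CPM in K562 DMSO and 6389 CPM in K562 periplocin, a log2 change of -0.50 (95% counting interval -0.51 to -0.48). In THP-1 they held 4885 and 4716 CPM, a log2 change of -0.05 (-0.06 to -0.04). The 16 mitochondrial genes held 705 and 644 CPM in K562 (-0.13, interval -0.17 to -0.09) and 743 and 523 CPM in THP-1 (-0.51, -0.55 to -0.47). The larger summed change was thus that of the cytosolic set in K562 and of the mitochondrial set in THP-1.

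The ATF4 element is one sequence that sets some cytosolic synthetase promoters apart, and the matches are shown because the genes that hold them appear throughout the comparisons. ATF4 binds DNA as a dimer with C/EBP proteins at a composite element with the core TGATGNAA, where N is any base. This core was searched on both strands from 250 bases before to 50 bases after each start listed for a gene in RefSeq (GRCh38.p14). Promoter windows of 16 cytosolic and 14 mitochondrial genes were found; those of LARS1, VARS1, YARS1, AARS2 and VARS2 were not used here. Some genes, among them CARS1, GARS1, TARS1 and WARS1, had 2 windows, and shares are of genes with a match in any window. The core occurred in 7 of the 16 cytosolic genes (43.8%) and in 1 of the 14 mitochondrial genes (7.14%). Among all genes with a window it occurred in 558 of 15340 (3.64%). Below are the 4 matches that lay wholly before the RefSeq start of their window. They are printed 5′ to 3′ on the gene's strand with the core in capitals. In the first 3 the core is read from the other strand.
GARS1, chr7:30594834-30594863, plus strand: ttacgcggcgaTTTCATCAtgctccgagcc
IARS1, chr9:92293698-92293721, minus strand: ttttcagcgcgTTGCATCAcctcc
AARS1, chr16:70289675-70289704, minus strand: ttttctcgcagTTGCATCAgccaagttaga
YARS2, chr12:32756076-32756105, minus strand: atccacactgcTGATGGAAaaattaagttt

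The matches began 33 bases before the start in GARS1, 13 in IARS1, 187 in AARS1 and 197 in YARS2, the only mitochondrial match. The other cytosolic matches, in TARS1, CARS1, MARS1 and NARS1, spanned or followed the start. The E-box CACGTG was searched as a second motif that overlaps the core in no window printed here. It was in 1 of the 16 cytosolic genes (6.25%, IARS1) and in 3 of the 14 mitochondrial genes (21.4%, MARS2, CARS2 and EARS2). Among all genes with a window it was in 1679 of 15340 (10.9%). A match is a description of letters in a window and not evidence that a factor binds there.

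The first question was how the synthetases of the cytosol responded in K562. Levels are given as CPM after scaling by the TMM factors of edgeR, folds are on the log2 scale, and a gene was called when it passed 2-fold; each line's genes with at least 20 counts in its pair of libraries were compared. By this rule 3 of the 19 cytosolic genes fell in K562 (15.8%) and 0 rose, where 12.2% of all 12399 genes fell and 9.7% rose. At 1.5-fold 7 of 19 were lower (36.8%) and 0 higher, against 22.6% lower and 19.8% higher among all genes. The median of the 19 was -0.47 on the log2 scale and that of all genes -0.01, and 13 of the 19 were below 0 (68.4%), against 50.8% of all genes.

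The 3 genes that fell in K562 charge tryptophan, isoleucine and asparagine. WARS1, the tryptophanyl-tRNA synthetase, had 1084 and 485 CPM in untreated and treated K562 cells and 242 and 424 CPM in untreated and treated THP-1 cells. The highest library was thus the untreated K562 one and the lowest the untreated THP-1 one, and the treated libraries lay between them. The log2 change was -1.16 (-1.20 to -1.12) in K562 and 0.81 (0.76 to 0.86) in THP-1, so that the ratio of K562 to THP-1 went from 4.49 in DMSO to 1.14 in periplocin. The gene lies at chromosome 14, 100333788 to 100376805, on the minus strand (GRCh38, GENCODE release 29). In that annotation 272 of its exon bases overlap WDR25 on the opposite strand, a gene with at most 157 counts in any library.

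IARS1, the isoleucyl-tRNA synthetase, was lower in both lines. Untreated and treated K562 cells gave 17100 and 8034 counts and THP-1 cells 7763 and 3598, and the log2 changes were -1.12 (-1.15 to -1.08) and -0.89 (-0.94 to -0.83). It is on chromosome 9, 92210207 to 92293756, minus strand. NARS1, which charges asparagine (chromosome 18, 57600656 to 57622213, minus strand), had 7234 and 3662 counts in K562 but 4720 and 4503 in THP-1. Its log2 change was -1.01 (-1.07 to -0.95) in K562, just past the threshold, and 0.16 (0.10 to 0.22) in THP-1; with libraries scaled by total counts the K562 value did not reach 2-fold.

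No cytosolic synthetase rose past 1.5-fold in K562, and the highest values belonged to the enzymes for serine, phenylalanine and cysteine. SARS1, the seryl-tRNA synthetase, had 337 CPM in DMSO and 462 in periplocin in K562, a log2 difference of 0.46 (0.41 to 0.51), and 147 and 163 CPM in THP-1, a difference of 0.15 (0.07 to 0.22). CARS1, the cysteinyl-tRNA synthetase, was at 139 and 169 CPM in K562 (0.29, 0.21 to 0.36) and at 74.7 and 135 CPM in THP-1 (0.85, 0.76 to 0.95), the largest cytosolic value of that line. Both genes were higher than their controls in both lines beyond counting error, and they were the only 2 of the 19 of which this held. FARSA, the catalytic alpha subunit of phenylalanyl-tRNA synthetase, was at 79.0 and 99.4 CPM in K562 (0.33, 0.23 to 0.43) and at 68.6 and 48.2 CPM in THP-1 (-0.51, -0.64 to -0.38).

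**Figure D1:**
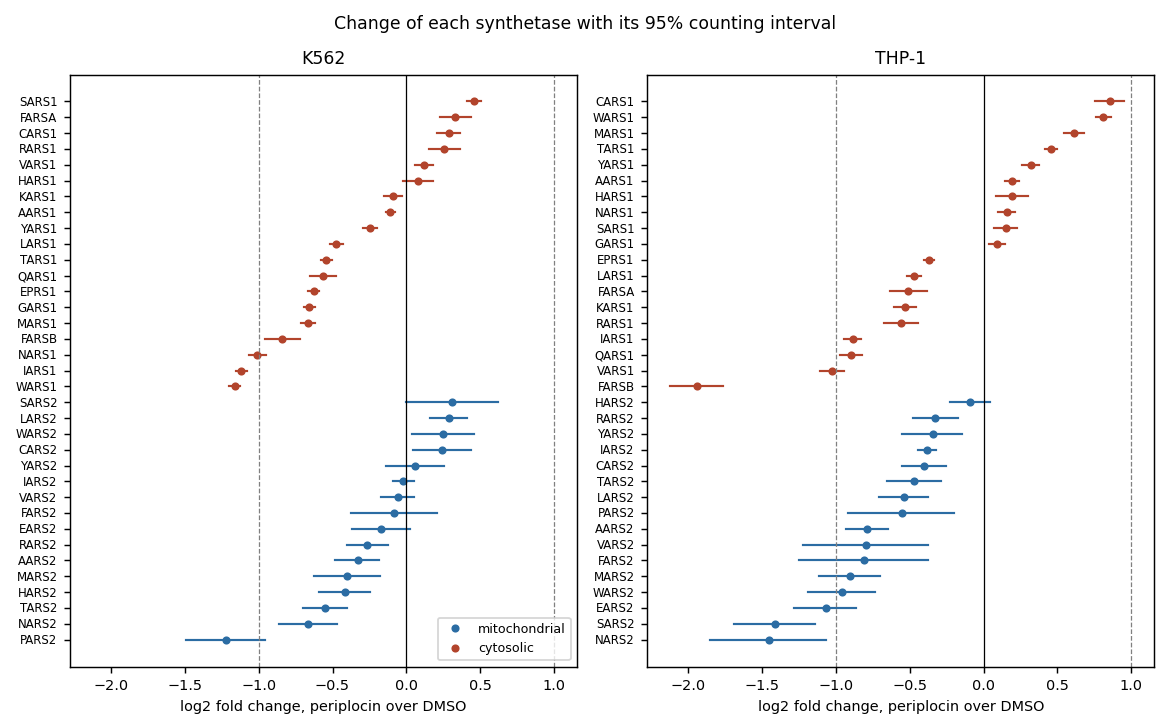
Log2 fold change of each synthetase, periplocin over DMSO, in K562 (left) and THP-1 (right), with cytosolic genes in red and mitochondrial genes in blue, each ordered by value. Bars are 95% counting intervals of 1 library against 1 library and dashed lines mark 2-fold; in THP-1 every mitochondrial point lies left of 0, from -1.45 to -0.09, while cytosolic points run from -1.94 to 0.85.

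In THP-1 the cytosolic synthetases divided almost evenly. Of the 19, 10 were higher and 9 lower, with a median of 0.09 beside -0.03 for all genes. At 2-fold 2 fell (10.5%) and 0 rose, against 11.4% and 8.88% of all 12989 genes. At 1.5-fold 4 were lower (21.1%) and 3 higher (15.8%), against 22.1% and 17.9% of all genes, so the shares of the cytosolic set were near those of the transcriptome.

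The 2 genes that fell in THP-1 encode subunits or enzymes for phenylalanine and valine. FARSB, the beta subunit that binds FARSA in the phenylalanyl enzyme, gave 1674 counts untreated and 953 treated in K562, beside 1420 and 317 in THP-1. It was lower in the treated library of each line, with log2 changes of -0.84 (-0.96 to -0.72) in K562 and -1.94 (-2.12 to -1.76) in THP-1, the lowest value of any synthetase. The gene is at chromosome 2, 222570536 to 222656337, minus strand. The subunits did not move alike in K562, where FARSA was higher and FARSB lower, while both were lower in THP-1. VARS1, the valyl-tRNA synthetase (chromosome 6, 31777518 to 31795953, minus strand), had 4278 and 4735 counts in K562 (0.12, 0.06 to 0.18) and 4463 and 1877 in THP-1 (-1.03, -1.10 to -0.95); with DESeq2 size factors its THP-1 value was -0.99, short of 2-fold.

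The highest THP-1 values after CARS1 and WARS1 belonged to the synthetases for methionine and threonine. MARS1 was at 589 and 371 CPM in K562 and at 169 and 258 CPM in THP-1, with log2 changes of -0.67 (-0.71 to -0.62) and 0.61 (0.55 to 0.68). Its 62 exon bases shared with DDIT3 on the opposite strand are a small part of the gene, but the strand used in counting was not given in the sources used here. TARS1 was at 824 and 566 CPM in K562 (-0.54, -0.58 to -0.50) and at 510 and 700 CPM in THP-1 (0.46, 0.42 to 0.50). In both genes the untreated K562 library was the highest of the 4.

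Counting error left 7 cytosolic genes lower in K562 and higher in THP-1: AARS1, YARS1, GARS1, TARS1, NARS1, MARS1 and WARS1. The reverse held for 3, VARS1, FARSA and RARS1. Of the 11337 genes compared in both lines, 9.88% were lower in K562 and higher in THP-1 in this way and 9.79% the reverse (19.7% in all); these shares depend on depth, since more counts give a narrower interval. Among the rest, 6 were lower in both lines (EPRS1, FARSB, IARS1, KARS1, LARS1 and QARS1; 20.5% of all genes) and 2 were higher in both (SARS1 and CARS1; 19.6% of all genes), and the K562 interval of HARS1 (0.08, -0.03 to 0.18) held 0. QARS1, the glutaminyl-tRNA synthetase, was at 155 and 104 CPM in K562 (-0.57, -0.65 to -0.48) and at 231 and 124 CPM in THP-1 (-0.90, -0.97 to -0.82). No gene's difference between lines could be tested, since each line had 1 library per condition.

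**Figure D2:**
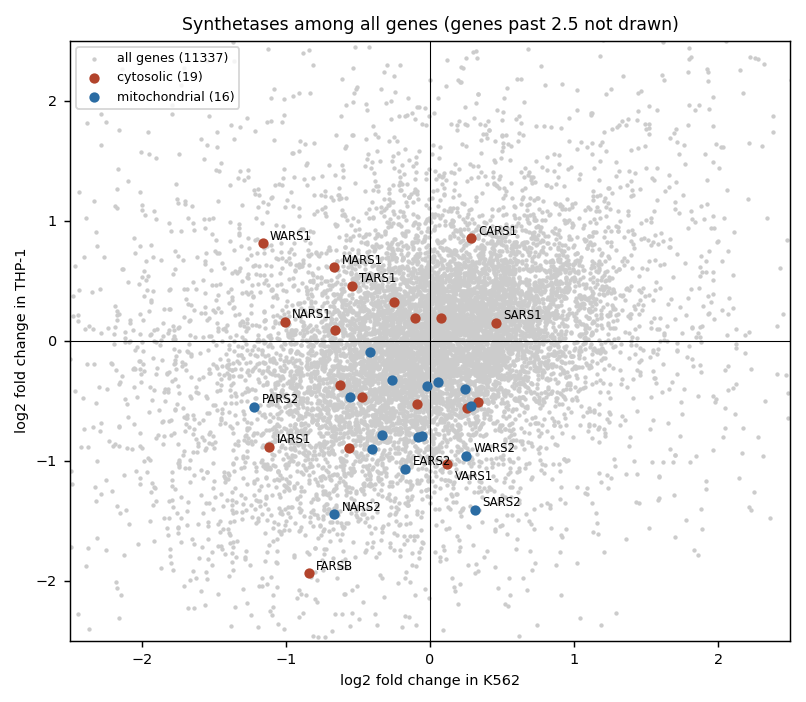
Log2 fold change in THP-1 against that in K562 for the synthetases and, in grey, for all 11337 genes with at least 20 counts in the pair of libraries of both lines; axes stop at 2.5. WARS1, MARS1, TARS1 and NARS1 lie at the upper left, lower in K562 and higher in THP-1, and no mitochondrial gene lies above the horizontal line.

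GARS1 and KARS1 each serve both compartments, since alternative starts or splicing give a cytosolic and a mitochondrial enzyme from 1 gene, and gene counts cannot part the forms. GARS1, the glycyl-tRNA synthetase, had 14408 counts untreated and 9307 treated in K562, beside 5766 and 5257 in THP-1. Scaled, this was a log2 change of -0.66 (-0.69 to -0.62) in K562 and of 0.09 (0.04 to 0.14) in THP-1. KARS1, the lysyl-tRNA synthetase, had 4560, 4356, 3876 and 2300 counts in the same order, with changes of -0.09 (-0.15 to -0.03) and -0.53 (-0.60 to -0.45). The larger change of GARS1 was therefore in K562 and that of KARS1 in THP-1.

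Of the cytosolic enzymes, 7 belong to the multisynthetase complex, an assembly that holds synthetases on the scaffold proteins AIMP1, AIMP2 and EEF1E1. These 7 genes (EPRS1, IARS1, KARS1, LARS1, MARS1, QARS1 and RARS1) had medians of -0.57 in K562 and -0.53 in THP-1, with 6 of 7 lower in each line. The 12 genes outside the complex had medians of -0.18 in K562, with 7 lower, and of 0.17 in THP-1, with 9 higher. The summed log2 change of the 7 was -0.65 in K562 and -0.42 in THP-1, and that of the 12 was -0.41 and 0.22. Thus the genes inside and outside the complex had medians of opposite sign in THP-1 alone; this was not tested.

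The scaffold genes themselves moved unevenly. AIMP2 fell from 736 to 240 counts in K562, a log2 change of -1.64 (-1.86 to -1.43), and had 559 and 251 counts in THP-1, a change of -0.93 (-1.15 to -0.71). EEF1E1 had 2465 and 1263 counts in K562 (-0.99, -1.09 to -0.89) and 145 and 82 in THP-1 (-0.60, -1.01 to -0.20). AIMP1 stood apart, with changes of 0.27 (0.18 to 0.35) in K562 and 0.03 (-0.06 to 0.11) in THP-1.

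Mitochondrial synthetases charge the transfer RNAs that translate the few proteins encoded by the mitochondrial genome, all subunits of the respiratory chain or ATP synthase. In K562 their median change was -0.13, with 11 of 16 lower (68.8%). At 2-fold 1 fell (6.25%) and 0 rose, at 1.5-fold 2 were lower (12.5%) and 0 higher, and the shares of all genes are those given above. Counting intervals lay below 0 for 7 genes, above 0 for 3 and across 0 for 6, where 38.4% of all genes lay below 0 and 37.6% above.

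In THP-1 all 16 were lower (100%), where 51.9% of all genes were, and the median was -0.67. At 2-fold 3 fell (18.8%) and 0 rose, where 11.4% of all genes fell and 8.88% rose. At 1.5-fold 8 of 16 were lower (50%) and 0 higher, against 22.1% and 17.9% of all genes. The intervals of 15 genes lay below 0, as did 38.8% of those of all genes (36.4% lay above), and only that of HARS2 (-0.09, -0.23 to 0.04) crossed it. Counts of these genes were lower than those of the cytosolic set, from 68 to 5714 in THP-1, so their intervals were wider.

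The genes that fell in THP-1 were NARS2, SARS2 and EARS2. NARS2, the mitochondrial asparaginyl enzyme (chromosome 11, 78435961 to 78574874, minus strand), had 537 counts untreated and 345 treated in K562, beside 233 and 73 in THP-1. Its log2 change was -0.66 (-0.86 to -0.47) in K562 and -1.45 (-1.85 to -1.07) in THP-1, and the 2 K562 libraries were above both THP-1 libraries in scaled level. EARS2, which charges glutamate (chromosome 16, 23522014 to 23557731, minus strand), had 438, 396, 652 and 266 counts in the same order, with changes of -0.17 in K562 and -1.07 (-1.28 to -0.86) in THP-1.

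SARS2, the mitochondrial seryl enzyme (chromosome 19, 38915266 to 38930896, minus strand), gave 156 counts untreated and 197 treated in K562, and 466 untreated and 150 treated in THP-1. The untreated THP-1 library was the high one, at 23.6 CPM, and the other 3 lay between 8.87 and 11.3 CPM. Its changes were 0.31 (-0.00 to 0.62) in K562 and -1.41 (-1.69 to -1.14) in THP-1. SARS2 shares 349 exon bases with MRPS12 on the opposite strand, a mitochondrial ribosomal protein gene whose own changes were -0.34 and -1.02. It also shares 67.4% of its exon bases with an unnamed gene on its own strand that was listed at 0 counts in all 4 libraries, so its values are uncertain to that extent.

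PARS2, the mitochondrial prolyl enzyme (chromosome 1, 54756898 to 54764514, minus strand), was the one mitochondrial synthetase that fell in K562. It had 389 and 170 counts there, a change of -1.22 (-1.49 to -0.96), and 180 and 105 in THP-1, a change of -0.55 (-0.92 to -0.20). NARS2, given above, and TARS2, the threonyl enzyme, were next in K562. TARS2 was at 52.2 and 35.6 CPM in K562 (-0.55, -0.70 to -0.40) and at 32.6 and 23.6 CPM in THP-1 (-0.47).

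At the other end in K562 were SARS2, LARS2 and WARS2. LARS2, the leucyl enzyme, had 988 and 1226 counts in K562 (0.28, 0.16 to 0.41) and 816 and 480 in THP-1 (-0.54). WARS2, the tryptophanyl enzyme, had 347 and 420 counts in K562 (0.25, 0.04 to 0.46) and 522 and 230 in THP-1 (-0.96, -1.19 to -0.73). LARS2, WARS2 and CARS2 (0.24, 0.04 to 0.44 in K562 and -0.40 in THP-1) were the mitochondrial genes higher in K562 and lower in THP-1 beyond counting error. The genes nearest to 0 in THP-1 were HARS2, RARS2 (-0.33) and YARS2 (-0.35).

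**Figure D3:**
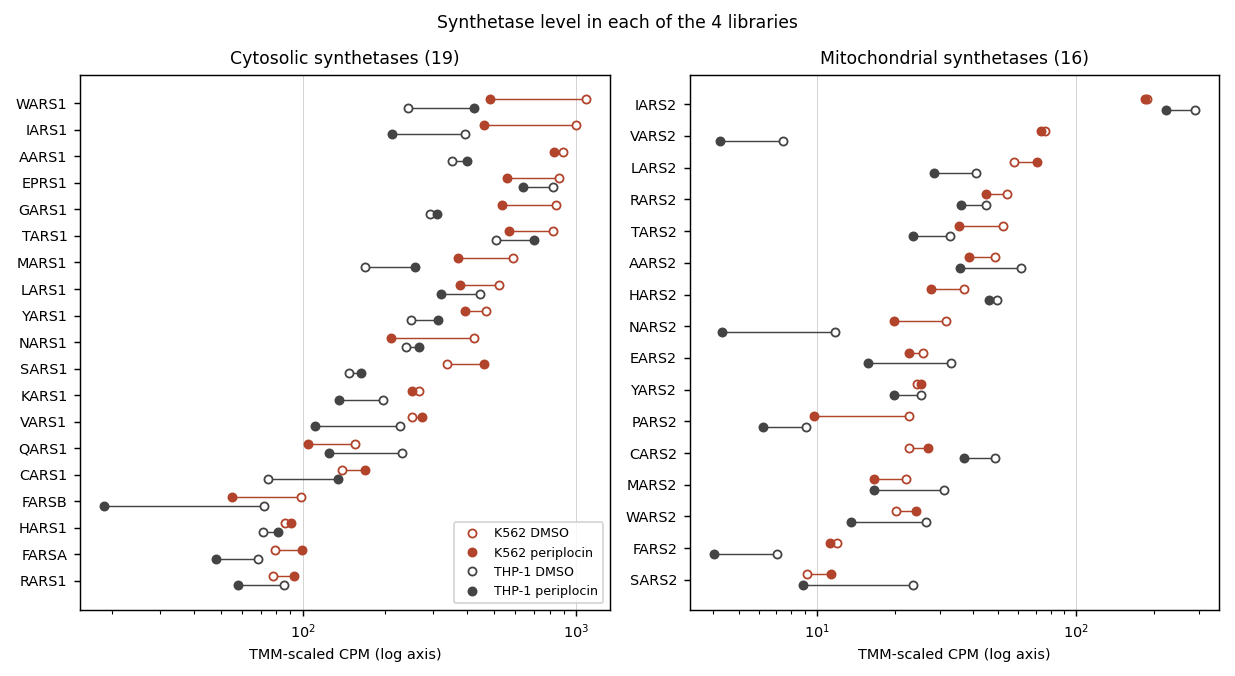
Level of each synthetase in the 4 libraries as TMM-scaled CPM on a log axis, with open points for DMSO and filled points for periplocin, K562 in red and THP-1 in grey, ordered by the K562 DMSO level. WARS1 shows the K562 level coming down from 1084 to 485 CPM and the THP-1 level going up from 242 to 424; VARS2 has the widest gap between the lines, 76.4 against 7.39 CPM in DMSO.

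HARS1 and HARS2, the cytosolic and mitochondrial histidyl enzymes, lie head to head on chromosome 5 (140673904 to 140691862, minus strand, and 140691426 to 140699318, plus strand) and share 402 exon bases. HARS1 had 1465 and 1575 counts in K562 and 1406 and 1373 in THP-1, with changes of 0.08 and 0.19. HARS2 had 631 and 481 counts in K562, a change of -0.42 (-0.59 to -0.24), and 979 and 786 in THP-1. Neither gene passed 1.5-fold, and without strand their shared reads cannot be told apart. Smaller opposite-strand overlaps were found for YARS1 with S100PBP (248 bases), AARS2 with TMEM151B (235) and EARS2 with UBFD1 (370).

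The compartments can be set against each other in 15 pairs of genes that charge the same amino acid, with FARSA and FARSB each paired to FARS2. The log2 change of the cytosolic gene minus that of its mitochondrial partner had a median of 0.01 in K562, with 8 pairs above 0 and 7 below. In THP-1 the median was 0.66, with 11 above and 4 below. The tryptophan pair led in both lines, in opposite directions, with a difference of -1.41 (counting SE 0.11) in K562 and of 1.77 (SE 0.12) in THP-1.

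Per kilobase of transcript, WARS1 was 48.5 times WARS2 in untreated and 18.2 times in treated K562, but 8.32 times in untreated and 28.4 times in treated THP-1. In K562 the isoleucine pair followed at -1.09 (SE 0.04), then the leucine pair at -0.76 (SE 0.07), beside which FARSB and FARS2 had the same value of -0.76 (SE 0.16). In THP-1 the asparagine pair was at 1.61 (SE 0.20), the serine pair at 1.56 (SE 0.14) and the methionine pair at 1.52 (SE 0.11). FARSB and FARS2 were the pair with the lowest THP-1 value, -1.13 (SE 0.23), with FARSB at -1.94 and FARS2 at -0.81.

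Synthetases also divide into class I and class II, which differ in the fold of the catalytic domain. In K562 the 9 mitochondrial class I genes had a median of -0.02, with 5 lower, and the 7 class II genes one of -0.42, with 6 lower. In THP-1 the medians were -0.54 and -0.79, and every gene of either class was lower. Cytosolic class I and class II genes (9 each, EPRS1 left out because it joins an enzyme of each class) had medians of -0.47 and -0.11 in K562 and of -0.47 and 0.15 in THP-1. These divisions are descriptions and no class was tested against the other.

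The lines already differed before treatment. In DMSO 17 of the 19 cytosolic genes were higher in K562, with a median log2 ratio of K562 to THP-1 of 0.69. The share and median of all genes by this measure are not given here. At 2-fold 6 were higher in K562 and 0 in THP-1, where 21.4% of 13441 genes were higher in K562 and 23.9% in THP-1. These 6 were WARS1 (4.49 times), MARS1 (3.48), GARS1 (2.89), AARS1 (2.56), IARS1 (2.55) and SARS1 (2.29).

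In periplocin the ratios were 1.14 for WARS1, 1.44 for MARS1 and 1.72 for GARS1, so these genes were nearer between the lines than in DMSO. AARS1 (2.08) and IARS1 (2.17) stayed above 2-fold and SARS1 (2.83) was further apart. FARSB, VARS1 and FARSA moved apart instead, from 1.36, 1.11 and 1.15 in DMSO to 2.93, 2.46 and 2.06, so that 6 cytosolic genes were again at least 2-fold higher in K562. The median log2 ratio of the 19 genes was 0.52, with 15 higher in K562.

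The mitochondrial set went the other way. In DMSO 7 of 16 genes were higher in K562 and the median log2 ratio was -0.20, whereas in periplocin 13 were higher and the median was 0.44. At 2-fold in DMSO VARS2 (10.3 times), NARS2 (2.67) and PARS2 (22.8 against 9.11 CPM) were higher in K562 and SARS2 and CARS2 were higher in THP-1. Of all genes, 21.4% were higher in K562 and 23.9% in THP-1 by this rule. For either set, no share of all genes is given for the ratios in periplocin or for genes higher by any amount in DMSO. VARS2, the mitochondrial valyl enzyme, had 1303 and 1275 counts in K562 and 146 and 72 in THP-1, and its ratio was 17.2 in periplocin.

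Per kilobase of each gene's longest coding transcript, the cytosolic genes stood about 1 order of magnitude above the mitochondrial ones. In K562 DMSO their levels ran from 24.6 to 351 CPM per kilobase with a median of 137, against 4.44 to 52.8 with a median of 12.2 for the mitochondrial genes. The highest in K562 DMSO were WARS1 (351), GARS1 (321), AARS1 (258) and IARS1 (215). In THP-1 DMSO the cytosolic median was 78.2 and EPRS1, the bifunctional glutamyl-prolyl enzyme, was highest at 164, while the mitochondrial median was 10.9 and IARS2 was highest at 81.2.

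In periplocin the cytosolic median per kilobase was 99.3 in K562 and 67.3 in THP-1, and the mitochondrial median 10.5 and 5.74. The ranges of the compartments overlapped in each line.

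ATF4 and the genes it is known to control, outside the synthetases, gave the wider setting for the cytosolic values. The 27 genes of that list had a median of -1.37 in K562, with 24 lower and 17 that fell past 2-fold, and of 0.34 in THP-1, with 17 higher, 4 that rose and 2 that fell. Of all genes 12.2% fell in K562, and 8.88% rose and 11.4% fell in THP-1. The cytosolic synthetases had medians of -0.47 and 0.09, but in THP-1 they divided into 10 higher and 9 lower, and their summed log2 change there was -0.05 (-0.06 to -0.04), against 0.30 for the ATF4 list. ATF4 itself gave 6722 counts untreated and 8071 treated in K562, and 12261 and 9967 in THP-1. Its changes of 0.24 (0.19 to 0.28) and -0.08 (-0.11 to -0.04) had the opposite sign to the medians of its list in both lines; ATF4 is controlled largely at translation, which these libraries do not measure.

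The list did not move as 1 block. ASNS, the asparagine synthetase, had 6784 and 8177 counts in K562 (0.24) and 1549 and 1380 in THP-1 (0.06), and so did not fall with most of the list. DDIT3, the stress factor CHOP, had 1499 and 821 counts in K562 (-0.89) and 242 and 394 in THP-1 (0.93). The largest changes in K562 were falls, in INHBE, an activin subunit, from 2589 to 121 counts (-4.44), in VLDLR, a lipoprotein receptor, from 104 to 12 (-3.13) and in SHMT2, the mitochondrial serine hydroxymethyltransferase, from 12203 to 2348 (-2.40). In THP-1 the largest were rises of STC2, a secreted glycoprotein, from 75 to 310 counts (2.27) and of ATF3, a stress transcription factor, from 28 to 100 (2.05), and a fall of PYCR1, of proline synthesis, from 821 to 253 (-1.47).

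The cytosolic synthetases whose windows held the ATF4 core can be set beside those whose windows did not. The 7 with the core had medians of -0.66 in K562, with 6 lower, and of 0.19 in THP-1, with 6 higher; CARS1 was the exception in K562 and IARS1 in THP-1. The 9 without it had medians of -0.09 and -0.51. The summed log2 changes lay closer in K562, at -0.58 with the core and -0.47 without it, and were 0.17 and -0.20 in THP-1. This split of the genes was not tested. In THP-1 the medians thus had opposite signs, and WARS1, which moved most between the lines, held no match in its windows. The core was also present in 6 of the 22 genes of the ATF4 list with a window (27.3%) and the E-box in 3 (13.6%).

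GCN2, encoded by EIF2AK4, is the kinase that senses uncharged transfer RNA and phosphorylates the initiation factor subunit EIF2S1. EIF2AK4 changed by -0.49 in K562 and by 0.15 in THP-1, its activator GCN1 by 0.21 and -0.49, and EIF2S1 by -0.74 and -0.32. None of these 3 passed 2-fold. IMPACT, an inhibitor of GCN2, fell whichever the line, from 119 to 52 counts (-1.22, -1.72 to -0.74) in K562 and from 1026 to 390 counts (-1.17) in THP-1. The phosphatase subunits that undo the phosphorylation were higher in both: PPP1R15A by 0.52 in K562 and, from 616 to 1730 counts, by 1.71 in THP-1, and PPP1R15B by 0.59 and 1.03, so both rose past 2-fold in THP-1.

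Other genes of transfer RNA charging and proofreading moved in varied ways. DTD1, which clears D-amino acids from transfer RNA, fell in K562 (-1.26, -1.55 to -0.98) and was lower in THP-1 (-0.81), and DTD2, a deacylase of the same kind, was lower in K562 (-0.69) and fell in THP-1 (-1.51, -1.93 to -1.11). TARS3, a second cytosolic threonyl enzyme, was at 0.87 and 0.29, SEPSECS, which makes selenocysteinyl transfer RNA, at -0.44 and 0.20, and AARSD1, an editing enzyme, at 0.28 and -0.83. PSTK, the kinase before SEPSECS, had at most 61 counts in any library, and its intervals crossed 0 in both lines. In mitochondria, GATB, GATC and QRSL1 form the amidotransferase that makes glutaminyl transfer RNA and MTFMT formylates the initiator; in this order their changes were -0.13, 0.33, -0.34 and -0.45 in K562, and none passed 2-fold there or in THP-1, where they were -0.62, 0.29, -0.30 and 0.51.

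The remaining machinery of translation was set beside the synthetases in each line. Of the genes of cytosolic ribosomal proteins, 78 of 82 were lower in K562 (median -0.83) and 83 of 83 in THP-1 (median -0.88). The cytosolic synthetases had a median of -0.47 in K562, and in THP-1 they divided into 10 higher and 9 lower. Cytosolic elongation and release factors had medians of -0.41 and -0.60, with 8 of 9 lower in each line. Their K562 median was thus close to that of the cytosolic synthetases. EEF1A1, the most abundant of them, was at -0.97 in K562 and -0.60 in THP-1, EEF1B2 at -0.98 and -1.25, EEF1G at -0.68 and -1.12 and EEF2 at -0.68 and -0.91. EEF2K, the kinase of EEF2, was at -0.41 and -0.62, EIF5A at -0.07 and -0.52, and EEF1D at -0.01 and -0.00, while the release factors ETF1 and GSPT1 were at -0.27 and 0.14 and at 0.13 and -0.09.

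Of the 78 mitochondrial ribosomal protein genes, 39 were lower in K562 (median 0.01) and 56 in THP-1 (median -0.27). In THP-1 7 of the 78 fell and 1 rose past 2-fold, where 11.4% of all genes fell and 8.88% rose. The lowest of them in THP-1 was MRPL24 (-1.92) and the highest MRPS6 (1.66). The 11 mitochondrial translation factors had medians of 0.19 in K562 and -0.06 in THP-1, where none passed 2-fold. Of these factors, the initiation factors MTIF2 and MTIF3 were at -0.85 and -0.02 in K562 and at -0.14 and 0.36 in THP-1, and the elongation factors TUFM, TSFM, GFM1 and GFM2 at 0.44, 0.22, 0.19 and -0.02 and at -0.22, 0.07, 0.01 and -0.49. The recycling and release factors MRRF, MTRF1, MTRF1L and MTRFR were at -0.17, 0.59, 0.34 and 0.61 and at -0.06, 0.34, 0.69 and -0.31, and MTRES1, a rescue factor, fell in K562 from 70 to 27 counts (-1.40) and was at -0.31 in THP-1. The median of the mitochondrial synthetases in THP-1 (-0.67) was lower than those of the mitochondrial ribosome and its factors, a difference that was not tested.

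**Figure D4:**
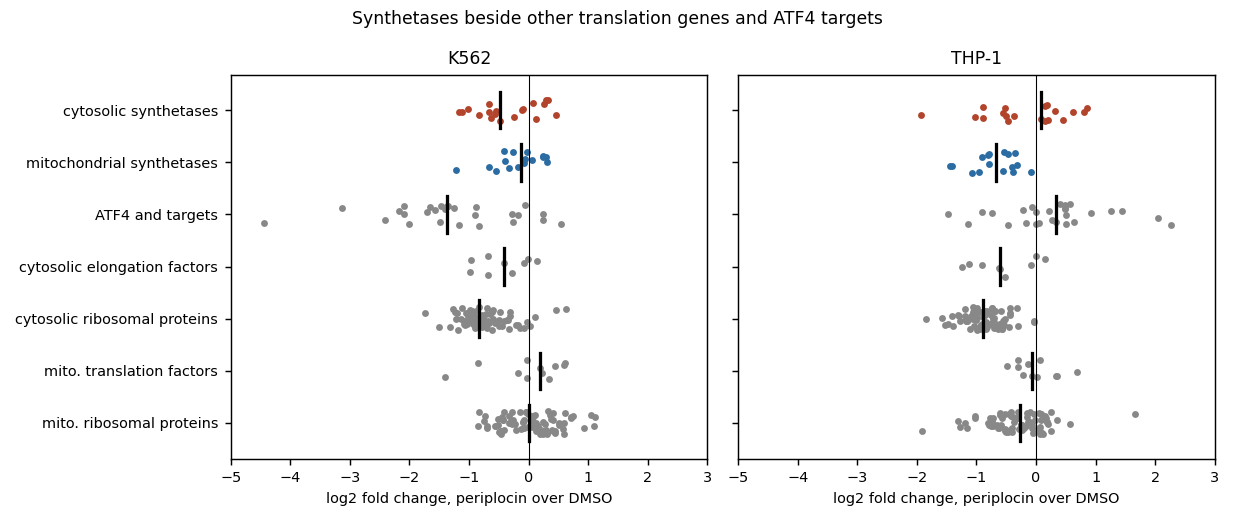
Log2 fold change of every gene in 7 groups, periplocin over DMSO, in K562 (left) and THP-1 (right); each point is 1 gene and each black bar the median of its group. The cytosolic synthetases have a median below 0 in K562, as has the ATF4 list (-0.47 and -1.37), and lie on both sides of 0 in THP-1 (median 0.09), and the mitochondrial synthetases in THP-1 have a lower median (-0.67) than the mitochondrial ribosomal proteins (-0.27).

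The only test across samples that the design allowed asked which genes moved alike in both lines, with the lines as a block and 1 residual degree of freedom. In edgeR's quasi-likelihood test 4 of the 35 synthetases had an unadjusted p under 0.05 (11.4%), as did 11.3% of all 13584 genes, so the share of the synthetases was that of the background. In the edgeR test the unadjusted p was 0.008 for FARSB, 0.011 for IARS1, 0.039 for QARS1 and 0.044 for NARS2 (adjusted p of at least 0.373 each), and all of these genes were lower in both lines. After Benjamini-Hochberg adjustment 0 of the 35 passed, with a lowest adjusted p of 0.373, and 0 of the 13584 genes passed, against 1535 before adjustment. A DESeq2 fit of the same model likewise called 0 of the 35 after adjustment (lowest adjusted p 0.071), against 125 of all genes. At an unadjusted DESeq2 p under 0.05 there were 3 of the 35, against 1175 of all genes.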

How the data were processed

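Poly-A RNA of K562 and THP-1 cells (72 h in DMSO or 100 nM periplocin) was sequenced in 4 libraries, 1 per condition. The authors deposited 1 table of expected counts per gene, neither normalized nor pooled, of which 87.4% to 88.3% are whole numbers. The submitters' processing notes name HISAT2, StringTie 1.3.1 and hg38; the strand setting of counting was not given in the sources used here. Samples were grouped by title; dose and time came from the study's methods.

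Counts were rounded and scaled by TMM over the 4 libraries with edgeR 4.0.16 in R 4.3.3. Fold changes carry exact Clopper-Pearson 95% intervals for counting error only, as reads had no molecular identifiers. Genes with at least 20 counts in a line's pair were compared, and called past 2-fold. The fit over both lines used genes that reached 10 counts in 2 or more libraries, and was tested on simulated counts; DESeq2 1.42.0 was the alternative, beside other scalings, filters, prior counts and thresholds. The 35 genes and all lists were chosen with earlier results of these data known. Named in full are genes past 2-fold, the 3 highest and lowest per compartment and line, GARS1, KARS1 and the 3 most divergent pairs per line. Of lists of 12 or fewer every gene is named, and of longer ones ATF4, ASNS, DDIT3 and the 3 largest changes of the ATF4 list per line. Other members, the ribosomal extremes and the overlaps were named after their values were seen. One marker fixed for the cell type check is not reported here. Positions are from GENCODE 29 on GRCh38, and promoters from RefSeq.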

Additional observations from a re-analysis of the deposited data

Results flagged for a closer look

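For 13 synthetases the counting intervals lay on opposite sides of 0 in the lines, so that the K562 library and the THP-1 library moved in opposite directions. The same held for 19.7% of the 11337 genes compared in both lines, a share that depends on depth. With 1 library per condition this contrast of the lines was not tested, and the SE given covers counting error only. As the THP-1 log2 fold change minus that of K562, the difference was 1.97 (SE 0.03) for WARS1, 1.28 (0.04) for MARS1, 1.16 (0.04) for NARS1, 1.00 (0.03) for TARS1, 0.75 (0.03) for GARS1, 0.56 (0.04) for YARS1 and 0.30 (0.03) for AARS1, all cytosolic genes. It was -1.15 (0.05) for VARS1, -0.84 (0.08) for FARSA and -0.81 (0.08) for RARS1, cytosolic genes that were higher in K562 and lower in THP-1. Among mitochondrial genes it was -1.21 (0.15) for WARS2, -0.83 (0.10) for LARS2 and -0.64 (0.12) for CARS2.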

How the results depend on the processing

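Over scalings within each line's pair, by DESeq2 size factors, by total counts with or without mitochondrially encoded genes, and a prior count of 2, 0 of 350 values of single synthetases changed sign and the largest shift was 0.043 on the log2 scale. With DESeq2 size factors 1 cytosolic gene fell past 2-fold in THP-1 in place of 2, and the one lost was VARS1. At 1.5-fold 7 cytosolic and 2 mitochondrial genes were lower in K562, and in THP-1 3 cytosolic genes were higher, 4 lower and 8 mitochondrial genes lower. Among all genes, 2643 rose and 2529 fell in K562 without the filter on low counts, 737 and 901 at a mean of at least 5 CPM, and 2451 and 2801 at 1.5-fold. In THP-1 these counts were 2291 and 2516, 641 and 872, and 2328 and 2874. In the fit over both lines DESeq2 called 125 genes and the fit without a filter 1, against 0. The cause of the DESeq2 difference was not tested. The fit over both lines paired DMSO with periplocin within each line, and no replicate could be left out because each condition had 1 library. Counts of 139 and 68 left FARS2 with a THP-1 interval from -1.25 to -0.38, and the intervals cover no variation between cultures.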
